A study of Rattus norvegicus with 16 samples.

Results

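The glutathione transferases and the sigma-class member Hpgds, the haematopoietic prostaglandin D synthase, were followed in rat liver by sex and under infused growth hormone (GH). Every gene was taken whose symbol in the platform annotation is Hpgds or begins with Gst or Mgst. This gave 14 genes of 4416 named on either of 2 kinds of oligonucleotide array. The Rat 5K arrays carried 13 of them and the Rat Liver arrays 10, with 1 probe per gene on each kind. Both kinds carried 9 genes, Gsta1, Gsta2, Gsta3, Gstk1, Gsto1, Gstp1, Gstt1, Hpgds and Mgst1. Gstm1 had a probe on the Rat Liver arrays alone, and Gsta4, Gstm3, Gstm5 and Gstt2 on the Rat 5K arrays alone.

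Glutathione transferases join the tripeptide glutathione to reactive electrophiles, among them drug metabolites, carcinogens and products of lipid peroxidation. The soluble enzymes are dimers that are sorted by sequence into classes, of which alpha and mu are abundant in rat liver and pi is scarce in the normal adult liver. Hpgds belongs to the sigma class, uses glutathione to turn prostaglandin H into prostaglandin D, and is best known from mast cells and antigen-presenting cells. Many liver enzymes of the rat differ by sex, and the time course of GH in blood, pulsed in males and flatter in females, is a known regulator of that difference.

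The animals were Fischer 344 rats of 8 to 10 weeks. There were untreated males, untreated females, and males that received rat GH continuously from an implanted osmotic pump, 2 µg of hormone each hour per 100 g of weight over 7 days. From each liver, polyadenylated RNA was copied into cDNA with Cy3 or Cy5, and each array paired 1 untreated male with 1 female or 1 GH-treated male, picked at random from 4 animals per group. Each kind of array held 4 female to male pairings and 4 GH pairings. Each pairing was hybridised to both kinds from duplicate labellings, which by the labels makes the kinds technical repeats of the same animals. Deviations of arrays with the same number on the 2 kinds were correlated across genes. For the female arrays they gave -0.0445 to 0.361, with 1 of the 4 pairs below 0. Female arrays of different numbers gave -0.380 to 0.213, so the ranges overlapped. For GH the correlations were 0.15 to 0.19 with the same number and -0.190 to 0.0564 otherwise. GH deviations were taken from means of 2 arrays, which nearly mirror each other, so these are not 4 separate values. With 4 untreated males for 8 pairings on each kind, males recur between the female and the GH arrays, in an order the labels do not give, and p-values measure the spread between arrays only.

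All values below are log2 ratios to the untreated male, female over male (the female ratio) or GH-treated male over male (the GH ratio), and a value of 1 is a doubling. Means are given ± SD over arrays. The number of arrays limits the precision, since signal over background is unknown here. Arrays gave 4614 to 5733 values for 5760 spots on the Rat 5K kind and 1060 to 1404 values for 1440 spots on the Rat Liver kind, where the lowest number was that of GH replicate 1. That array lacked a value for Gsta1, Gstk1, Gstm1 and Gsto1. The direction of the ratios rests on the dyes in the protocol text and on textbook sex-biased genes outside the family, of which 13 of 13 past the threshold on Rat 5K and 12 of 12 on Rat Liver went their known way. The titles of GH replicates 3 and 4 on Rat 5K swap the dyes, whereas in the protocol text the untreated male always carries Cy5. On Rat Liver 10 textbook genes were called for GH, 9 their known way and Cyp2a1, a female-biased gene, lower. Of the 10, 7 had a probe on Rat 5K, and Cyp2a1, Mup5 and Sult1e1 did not. Read by their titles, replicates 3 and 4 gave each of the 7 the opposite sign to Rat Liver. Read with the untreated male as numerator, as on all other arrays, they gave all 7 the same sign, and that reading is used below. It replaced the planned reading after these counts were seen. In the reading used, replicates 3 and 4 correlated across genes with replicates 1 and 2 on Rat 5K at -0.186 to -0.0890. Under the title reading they did so at 0.0890 to 0.186, so this comparison went with the title reading. The values of both title orders are kept apart in the fit, and the GH ratio on Rat 5K is the average of the 2 means. Its p-values therefore leave out the gap between the title orders, which the SD over all 4 arrays includes. SD and p-value of a GH ratio on Rat 5K thus measure different spreads.

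Tests were limma's moderated tests over all features of a kind of array with Benjamini-Hochberg adjustment, and a gene was called at an adjusted p under 0.05. For the female ratio on Rat Liver, 4 of 10 genes of the family were called, Gsta1 and Gsta3 higher and Hpgds and Gstm1 lower in females, against 6.19% of all features in either direction (2.62% higher, 3.57% lower). For the GH ratio on Rat Liver, 6 of the 10 genes had a value on all 4 arrays, and 2 of the 6 were called, Gsta3 higher and Hpgds lower in GH-treated males, against 5.39% of all features (2.24% higher, 3.15% lower). On Rat 5K, 11 of 13 genes could be tested for the female ratio and 2 were called, Gsta1 and Gsta3, both higher, against 5.36% of all features (3.38% higher, 1.98% lower). For the GH ratio there, 1 of 13 genes was called, Gsta1, higher, against 1.60% (0.661% higher, 0.938% lower). Below, the dye-order difference is the mean of Rat 5K GH replicates 1 and 2 minus that of 3 and 4, divided by 2. With it subtracted from the female ratio on Rat 5K, 0 of 11 genes were called by limma, against 0.515%. Gsta1 was then at 1.14 (adjusted p = 0.0677) and Gsta3 at 1.26 (adjusted p = 0.0942). The calls therefore lay in the alpha, mu and sigma classes and none in pi, theta, kappa, omega or the microsomal class. That the classes differ was not tested.

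**Figure D1:**
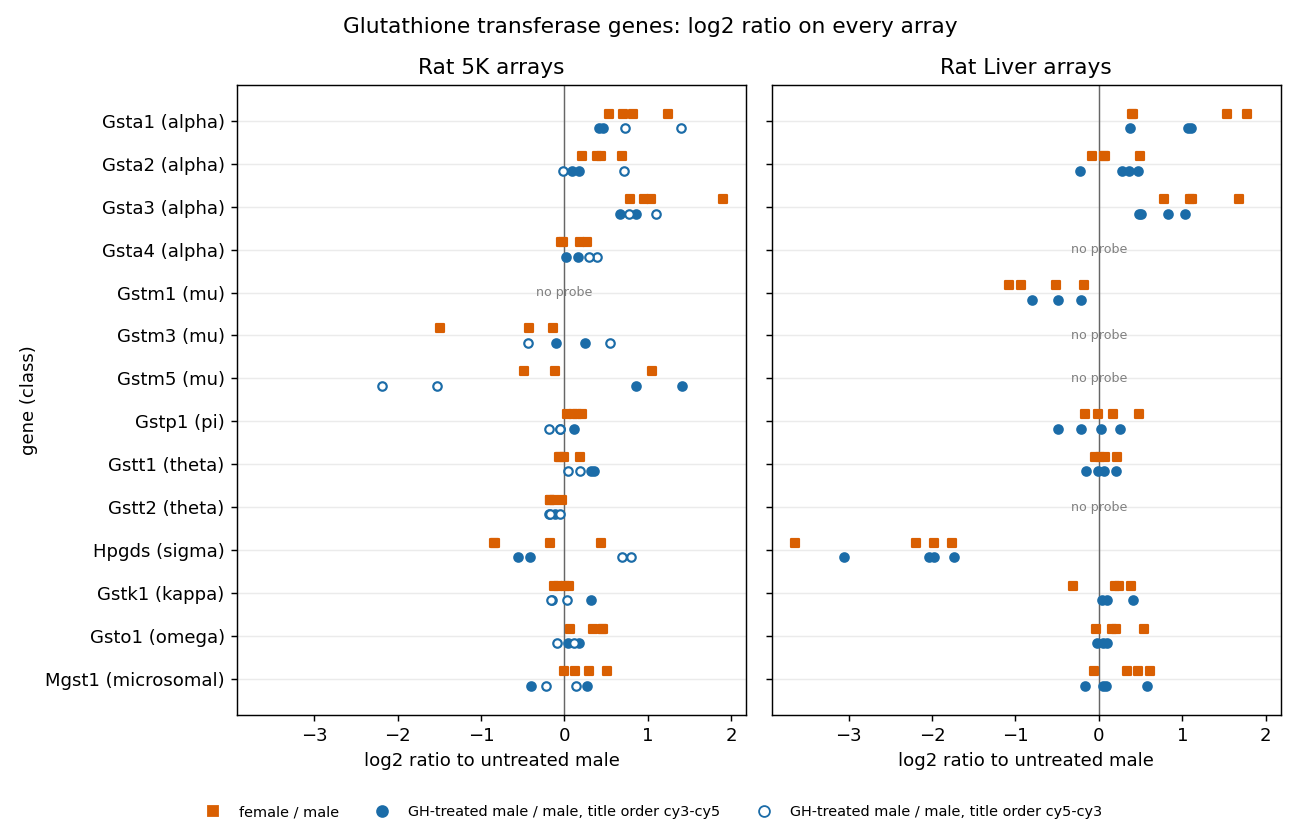
Log2 ratio of each of the 14 genes on every array, with Rat 5K arrays on the left and Rat Liver arrays on the right. Squares are female over male, circles are GH-treated male over male, and open circles mark the 2 GH arrays whose titles swap the dyes. Gsta1 and Gsta3 lie to the right of 0 on every array that measured them, and Hpgds lies to the left of 0 on all 8 Rat Liver arrays.

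The alpha class includes the main liver glutathione transferases, which also reduce lipid hydroperoxides. Gsta3 and Gsta1 lie next to each other on chromosome 9 with 0 protein-coding genes between them in RefSeq (GRCr8), whereas Gsta2 and Gsta4 lie on chromosome 8. RefSeq gives Yc2 as a synonym of Gsta3 and Yc1 as one of Gsta1, and the Yc2 subunit is known for its activity against the epoxide of aflatoxin. RefSeq also lists Gsta3 and Gsta5 as synonyms of Gsta1, Gsta5 of Gsta3, Gsta1 of Gsta2, GSTA3 of Gstm1 and Gstm3 of Gstm5. The gene ID that the platform annotation gives each of the family's 23 probes led to the same symbol in RefSeq for 23 of 23. Their upstream sequences are shown because these neighbours were the alpha genes that were called. Both are given 5′ to 3′ as far as they lie outside the annotated gene. The Gsta1 stretch is chr9:31216607-31216782 on the minus strand, 250 to 75 bases before the listed transcript start, and the Gsta3 stretch is chr9:31154739-31154988 on the plus strand, the 250 bases before the more upstream of its 2 listed starts. Capitals mark matches to TTCNNNGAA, a palindrome of the kind bound by STAT5, the transcription factor that GH activates, and to TGACNNNGC, the core of the antioxidant response element bound by NRF2, searched on both strands.
Gsta1: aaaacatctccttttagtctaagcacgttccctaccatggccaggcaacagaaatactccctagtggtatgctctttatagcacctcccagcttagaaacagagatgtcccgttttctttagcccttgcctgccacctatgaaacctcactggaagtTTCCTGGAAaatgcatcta
Gsta3: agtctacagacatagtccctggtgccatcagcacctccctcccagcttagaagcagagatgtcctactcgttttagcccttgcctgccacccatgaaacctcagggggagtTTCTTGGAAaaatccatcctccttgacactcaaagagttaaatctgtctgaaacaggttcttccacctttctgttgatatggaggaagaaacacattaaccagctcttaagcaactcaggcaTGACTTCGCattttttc
The windows of 250 bases before the start aligned locally over 152 columns, of which 121 were identical (79.6%), and both palindromes began at column 77 of that alignment. The palindrome stood in 3 of 12 windows of the 11 genes with an entry, those of Gsta1, Gsta3 and Gsto1. It stood in 7.67% of 33469 windows of the same length over all listed starts. The antioxidant core stood in 3 of the 12, those of Gsta3, Gstm5 and Gstp1, and in 10.1% of all. The palindrome's letters also suit other STAT factors, and those of the antioxidant core can overlap an AP-1 site. Hpgds, Gstt1 and Gstt2 had no entry. A match is a description of letters and not of binding.

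Gsta3 was higher in females and in GH-treated males on every array of both kinds. On Rat Liver its female ratios were 1.10, 1.11, 1.68 and 0.78 in replicates 1 to 4, and its GH ratios 1.03, 0.51, 0.83 and 0.48. The lowest female ratio lay within the range of the GH ratios, so the groups overlapped, with female replicate 3 alone above 1.5. The female mean was 1.17 ± 0.38 (SD, n = 4), 2.24-fold (limma adjusted p = 0.00129), and the GH mean 0.71 ± 0.27 (SD, n = 4), 1.64-fold (adjusted p = 0.0235). The GH call was lost without replicate 1, 2 or 3, with adjusted p of 0.113, 0.0501 and 0.103.

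On Rat 5K the female ratios of Gsta3 were 0.95, 1.90, 1.04 and 0.79 and its GH ratios 0.66, 0.86, 1.10 and 0.78. Here female replicate 2 stood high and the other arrays of both groups overlapped. The female mean of 1.17 ± 0.50 (SD, n = 4), 2.25-fold, was called (adjusted p = 0.00917). The GH mean of 0.85 ± 0.19 (SD, n = 4) was not (adjusted p = 0.0596), although all 4 arrays were above 0. The kinds differed for Gsta3 by 0.00 in the female ratio and by 0.14 in the GH ratio (Rat 5K minus Rat Liver, 95% intervals -0.49 to 0.49 and -0.35 to 0.63).

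Gsta1 followed the same signs. Its female ratios were 0.40, 0.41, 1.54 and 1.78 on Rat Liver and 1.24, 0.83, 0.70 and 0.54 on Rat 5K. On Rat Liver replicates 3 and 4 stood more than 1 log2 unit above replicates 1 and 2, and on Rat 5K they were the lower ones. The means of 1.03 ± 0.73 and 0.83 ± 0.30 (SD, n = 4 each) were both called (adjusted p = 0.0316 and 0.0156). Leaving out replicate 3 or 4 ended the Rat Liver call (adjusted p = 0.130 and 0.146), and leaving out replicate 1 or 2 the Rat 5K call (0.0606 and 0.0825).

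The GH ratios of Gsta1 were 0.37, 1.10 and 1.07 in Rat Liver replicates 2 to 4 and 0.41, 0.47, 0.73 and 1.39 on Rat 5K. All were above 0, and on Rat Liver they averaged 0.85 ± 0.41 (SD, n = 3; adjusted p = 0.132 where 3 arrays sufficed for a test). On Rat 5K the mean was 0.75 ± 0.45 (SD, n = 4; adjusted p = 0.0486). That call lay close to the threshold and ended in 10 of the 13 alternatives tried, among them the loss of replicate 1, 2 or 4 (adjusted p = 0.234, 0.407 and 0.280). Another of them was 1 coefficient for all 4 GH arrays, where the gap between title orders counts as spread (adjusted p = 0.126). With GH replicates 3 and 4 read by their titles, the mean GH ratio turned to -0.31 for Gsta1 and to -0.090 for Gsta3, neither called.

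Gsta2, which codes for another major alpha subunit of liver, was not called in any group, though its female ratio on Rat 5K was called with the arrays scaled to 1 spread (0.42, adjusted p = 0.0440). Its female mean was 0.14 ± 0.24 on Rat Liver and 0.43 ± 0.20 on Rat 5K (SD, n = 4 each; adjusted p = 0.745 and 0.0968), and its GH means were 0.22 ± 0.31 and 0.24 ± 0.33. Gsta3 exceeded Gsta2 on each of the 16 arrays. The difference averaged 1.03 ± 0.60 for the female ratio and 0.49 ± 0.56 for the GH ratio on Rat Liver, and 0.74 ± 0.57 and 0.61 ± 0.45 on Rat 5K (SD, n = 4 each). An exact two-sided sign-flip test gave p = 0.125 in each of the 4 groups, the smallest that 4 arrays allow. Gsta3 and Gsta1 had no fixed order, with Gsta3 the higher on 3 of 4 arrays in 3 groups and on 1 of 3 for GH on Rat Liver. Gsta4, whose product conjugates the lipid aldehyde hydroxynonenal, had means of 0.10 ± 0.15 and 0.22 ± 0.16 for the female and GH ratios on Rat 5K (SD, n = 4 each), neither called. Probe sequences were not used here, so how far a probe also reads a close paralogue of its class is unknown.

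On the Rat Liver arrays Hpgds had the largest mean ratios of the family. Its female ratios were -1.76, -2.20, -3.64 and -1.98, and its GH ratios -1.97, -1.74, -3.05 and -2.03. The groups overlapped throughout, and replicate 3 was the lowest in each. The female mean was -2.40 ± 0.85 (SD, n = 4; adjusted p = 0.000532), 5.26-fold lower than in untreated males, and the GH mean -2.20 ± 0.58 (SD, n = 4; adjusted p = 0.00367), 4.59-fold lower. Both calls held without any 1 replicate, with means of -2.61 to -1.98 and -2.35 to -1.91. In RNA of whole liver, fewer cells of a type and less RNA per cell cannot be told apart.

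On Rat 5K the female ratios of Hpgds were -0.83, -0.85, 0.44 and -0.18, and its GH ratios -0.41, -0.56, 0.69 and 0.80. The female ratios fell on both sides of 0, and the GH ratios were below 0 on replicates 1 and 2 and above 0 on replicates 3 and 4, the arrays titled with the other dye order. The means were -0.35 ± 0.62 (SD, n = 4; adjusted p = 0.292) and 0.13 ± 0.71 (SD, n = 4; adjusted p = 0.782). The GH mean was -0.48 over replicates 1 and 2 and 0.74 over replicates 3 and 4, and the average of all 4 with the title reading was -0.61 (adjusted p = 0.152). Subtracting the dye-order difference of the GH arrays, -0.61 after division by 2, turned the female mean to 0.26 (adjusted p = 0.972).

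Taken array by array, Hpgds was higher on Rat 5K than on Rat Liver for 8 of 8 pairs of arrays with the same group and number. The difference was 2.04 ± 1.41 for the female ratio (SD, n = 4; 95% interval 1.09 to 3.00) and 2.33 ± 1.17 for the GH ratio (95% interval 1.40 to 3.26). Over the genes on both kinds, neither passed the adjusted threshold (adjusted p = 0.129 and 0.0795), and 0.107% and 0.00% of genes did. Without replicate 3 the GH difference of 2.10 was called (adjusted p = 0.00191). Female replicate 3 was at once the lowest on Rat Liver, at -3.64, and the highest on Rat 5K, at 0.44. When each pair of arrays was averaged, the female ratio of Hpgds was -1.37 ± 0.24 (SD, n = 4; adjusted p = 2.39e-05) and the GH ratio -1.03 ± 0.28 (SD, n = 4; adjusted p = 0.000225). These averages lie between the values of the kinds and do not show the gap between them. For the female ratio the SD was 0.85 on Rat Liver and 0.62 on Rat 5K. Averaging cancelled deviations of opposite sign, as in female replicate 3, and so made the SD smaller. The p-values of the averages therefore do not measure the spread between arrays on either kind. Why the probes differ was not tested.

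**Figure D2:**
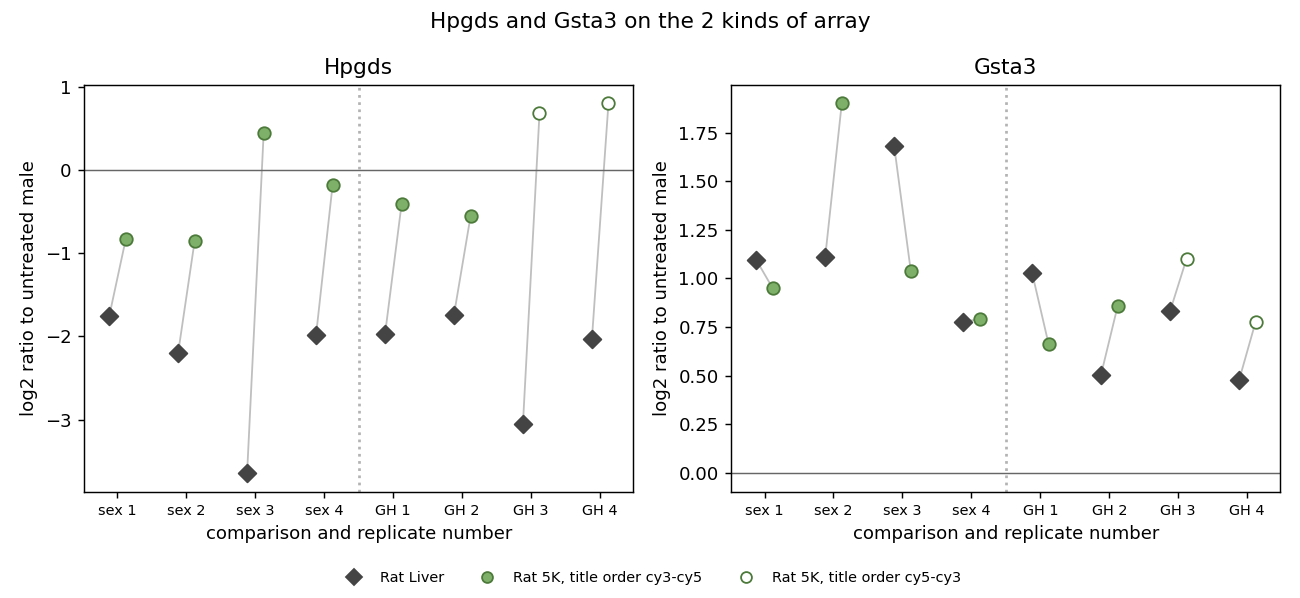
Log2 ratio of Hpgds and Gsta3 on each pair of arrays with the same group and replicate number, with Rat Liver as diamonds and Rat 5K as circles, joined by a line. Open circles are the 2 arrays titled with the other dye order. For Hpgds every Rat 5K circle lies above its Rat Liver diamond, whereas for Gsta3 the lines run in both directions and all values are above 0.

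The markers of cells known to hold Hpgds were read beside it. Of 10 mast cell markers, 5 were tested for the female ratio on Rat 5K and 9 for the GH ratio. Their mean log2 ratios were -0.15 to 0.13 and -0.31 to 0.19, and 0 were called. For GH the SD over arrays was 2.73 for Cpa3, with a mean of -0.30, and 0.13 to 0.59 for the others. None of the mast cell markers could be tested on the Rat Liver arrays, the only kind on which Hpgds was called. Of 11 macrophage markers, 3 were tested on Rat Liver, with female ratios of -0.18 to 0.04 and GH ratios of -0.21 to -0.01, and 0 were called. On Rat 5K the monocyte receptor Cd14 was lower in females, at -0.86 ± 0.52 (SD, n = 4; adjusted p = 0.0282). The other 4 tested macrophage markers had female ratios of -0.26 to 0.01 and were not called. Of all features, 5.36% were called for that ratio. Of the markers of other cells, the collagen gene Col3a1 of stellate cells and fibroblasts was lower in females on Rat 5K, at -0.71 ± 0.10 (SD, n = 4; adjusted p = 0.0182), and at -0.55 and not called with the dye-order difference subtracted. The other 6 tested genes of its list had female ratios of -0.19 to 0.13 and were not called there. The median of that list, with Col3a1, was 0.01. Nor were the 4 endothelial, 6 lymphocyte, 3 red cell and 2 bile duct markers called, with female ratios of -0.58 to 0.20, -0.01 to 0.48, -0.68 to -0.11 and -0.02 to 0.22. For GH on Rat 5K and for both ratios on Rat Liver, 0 tested markers of any of these lists were called by limma. On Rat Liver, only 3 macrophage, 1 red cell and 1 stellate and fibroblast marker were tested, and none of the other lists. The part of these cells in the Hpgds ratio was not tested.

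**Figure D3:**
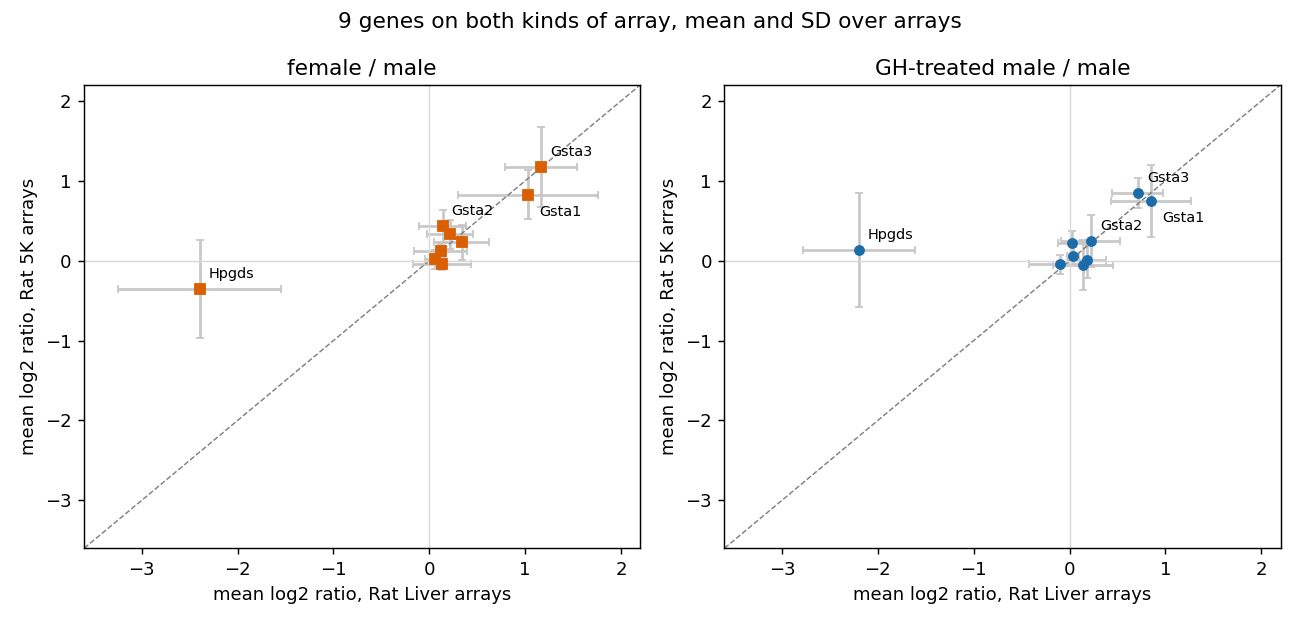
Mean log2 ratio on Rat Liver arrays (x axis) and Rat 5K arrays (y axis) for the 9 genes on both kinds, female over male on the left and GH-treated male over male on the right. Bars are SD over 3 or 4 arrays and the dashed line marks equal values. Hpgds lies at -2.40 and -0.35 for the female ratio and at -2.20 and 0.13 for the GH ratio, away from the line, and Gsta3 lies on or near it.

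The mu class gave 1 call. Gstm1, a main mu subunit of rat liver, was measured on Rat Liver only, with female ratios of -0.52, -0.18, -1.08 and -0.94. All 4 were below 0, with replicates 3 and 4 the lowest, and the mean of -0.68 ± 0.41 (SD, n = 4), 1.60-fold lower, was called (adjusted p = 0.0393). The call ended without replicate 1, 3 or 4 (adjusted p = 0.0635, 0.173 and 0.158). The GH ratios of Gstm1 in replicates 2 to 4 were -0.21, -0.81 and -0.49, with a mean of -0.50 ± 0.30 (SD, n = 3; adjusted p = 0.207 where 3 arrays sufficed).

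Gstm3 and Gstm5, the other mu genes, were measured on Rat 5K only. The female ratios of Gstm3 were -0.14, -1.49 and -0.43 in replicates 1, 2 and 4, all below 0, with a mean of -0.68 ± 0.71 (SD, n = 3), and its GH ratios 0.25, -0.10, 0.55 and -0.44. Those of Gstm5 were 1.05, -0.11 and -0.49 in female replicates 2 to 4 and 1.41, 0.86, -2.19 and -1.53 for GH. The GH values of Gstm5 thus split by title dye order without overlap, at 1.13 ± 0.39 and -1.86 ± 0.47 (SD, n = 2 each). The difference between the orders, divided by 2, was 1.50 (adjusted p = 0.0271), and 1.94% of all features passed that test. Averaged over both orders the GH ratio was -0.36 ± 1.76 (adjusted p = 0.522), and the title reading would instead make it 1.50. No direction is given for Gstm5.

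**Figure D4:**
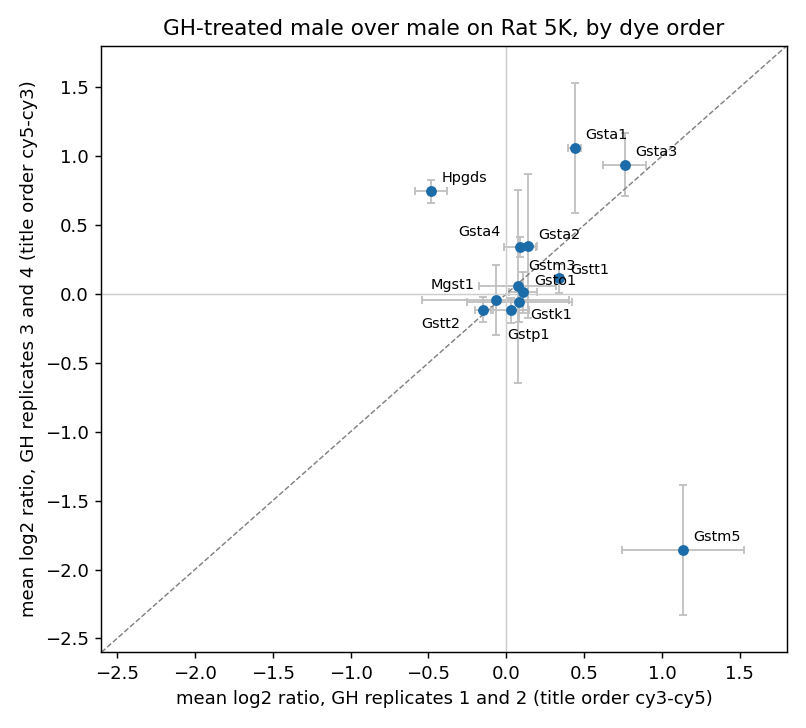
Mean GH ratio on Rat 5K over replicates 1 and 2 (x axis) and over replicates 3 and 4, titled with the other dye order (y axis), for the 13 genes on that kind. Bars are SD over 2 arrays and the dashed line marks equal values. Gsta1 and Gsta3 are above 0 in both orders, whereas Hpgds (-0.48 and 0.74) and Gstm5 (1.13 and -1.86) change sign.

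The remaining classes gave no call. Gstp1, the pi-class gene known as a marker of early liver tumours in the rat, had female means of 0.12 ± 0.28 on Rat Liver and 0.13 ± 0.08 on Rat 5K, and GH means of -0.10 ± 0.32 and -0.05 ± 0.12 (SD, n = 4 each). Gstt1, of the theta class, had female means of 0.06 ± 0.11 and 0.02 ± 0.12 and GH means of 0.02 ± 0.15 and 0.23 ± 0.14 on Rat Liver and Rat 5K (SD, n = 4 each). Its theta partner Gstt2 was below 0 on all 8 Rat 5K arrays, but by little, at -0.12 ± 0.07 for the female and -0.13 ± 0.06 for the GH ratio (SD, n = 4 each; adjusted p = 0.390 and 0.513).

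Gstk1, the kappa-class enzyme of mitochondria and peroxisomes, had female means of 0.13 ± 0.30 and -0.04 ± 0.08 (SD, n = 4 each) on Rat Liver and Rat 5K. Gsto1, an omega-class enzyme that reduces dehydroascorbate, was above 0 in 7 of 8 female arrays, with means of 0.22 ± 0.24 and 0.33 ± 0.18 (SD, n = 4 each; adjusted p = 0.435 and 0.0958), while its GH means were 0.04 ± 0.06 (n = 3) and 0.06 ± 0.11 (n = 4). Mgst1, the membrane-bound transferase of the endoplasmic reticulum and outer mitochondrial membrane, had female means of 0.34 ± 0.29 and 0.23 ± 0.22 and GH means of 0.14 ± 0.31 and -0.06 ± 0.31 (SD, n = 4 each). None of these genes was called on either kind, and the GH mean of Gstk1 was 0.18 ± 0.20 (n = 3) on Rat Liver and 0.01 ± 0.23 (n = 4) on Rat 5K.

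By class, the median female ratio of the tested alpha genes was 1.03 over 3 genes on Rat Liver and 0.63 over 4 genes on Rat 5K, where the medians of all features were 0.00 and -0.04. The median GH ratio of the alpha genes was 0.47 over 2 genes and 0.50 over 4 genes, beside -0.02 and 0.02 over all features. Pi, with 1 gene, stood at 0.12 and 0.13 for the female ratio, and theta at 0.06 (1 gene) and -0.05 (2 genes). Sigma stood at -2.40 on Rat Liver and -0.35 on Rat 5K, and mu at -0.68 from 1 gene on Rat Liver. The whole family had a median female ratio of 0.13 on each kind.

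The female ratio and the GH ratio draw on the same 4 untreated males, so the difference of each gene was tested in place of their likeness. On Rat 5K the GH side of this test was replicates 1 and 2 alone, whose title dye order is that of the female arrays. No gene of the family was called for female minus GH ratio on either kind, and no feature was (0.00% of 935 on Rat Liver and of 3686 on Rat 5K, where 34 and 185 had an unadjusted limma p under 0.05). With the replicate number as a block, 2 features were called on Rat Liver, neither of them in the family. For Gsta3 the female ratio exceeded the GH ratio by 0.46 on Rat Liver (95% interval -0.03 to 0.94). On Rat 5K at equal dye order, with GH replicates 1 and 2, it did so by 0.41 (95% interval -0.28 to 1.10). Over all 4 pairs of the same number on Rat 5K the difference averaged 0.32 ± 0.50 (SD). For Hpgds the difference on Rat Liver was -0.20 (95% interval -1.05 to 0.66). These intervals include 0 and do not show that the ratios are equal. On Rat Liver, where same-numbered arrays deviated together, Gsta3 was higher in the female than in the GH array in 4 of 4 pairs, by 0.07 to 0.85. With the replicate block the difference was 0.46 (95% interval 0.08 to 0.83, unadjusted p = 0.0234, adjusted p = 0.554), and thus failed the adjustment over all features. For Hpgds the blocked interval was -0.60 to 0.20, with the female array higher in 2 of 4 pairs.

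Genes around the family were read in lists, beside the share of all features called in either direction. That share was 6.19% for the female and 5.39% for the GH ratio on Rat Liver, and 5.36% and 1.60% on Rat 5K. Whether a list differed from it was not tested. Of 27 genes of glutathione synthesis and redox enzymes, 13 were tested for the female ratio on Rat Liver and 1 was lower, Gclm, the modifier subunit of the enzyme that makes the glutathione precursor, at -0.67 ± 0.36 (SD, n = 4; adjusted p = 0.0419). For GH there, 8 were tested, Gclm was lower at -0.97 ± 0.42 (adjusted p = 0.00953) and the peroxidase Prdx6 higher at 0.70 ± 0.44 (adjusted p = 0.0396). On Rat 5K Gclm was at -0.39 and -0.32 for the female and GH ratio and was not called. The oxoprolinase Oplah of the glutathione cycle is not counted in this list, where its symbol was misspelt, and was looked up after the other values were seen. It was not called either, at -0.18 ± 0.59 and -0.17 ± 0.24 for the female and GH ratio on Rat Liver and -0.48 ± 0.25 and 0.40 ± 0.58 on Rat 5K (SD, n = 4 each).

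On Rat 5K 20 genes of that list were tested for each ratio. The glutathione peroxidase Gpx1 was higher in females, at 0.70 ± 0.31, and in GH-treated males, at 0.71 ± 0.29 (SD, n = 4 each; adjusted p = 0.0246 and 0.0486). Hagh, a hydrolase of the glyoxalase pathway that releases glutathione, was lower in females at -0.54 ± 0.30 (adjusted p = 0.0424), and no other gene of the list was called there. Of 20 NRF2 target and xenobiotic receptor genes, 11 and 9 were tested on Rat Liver and the glucuronosyltransferase Ugt2b1 was higher for each ratio, at 0.62 ± 0.24 and 0.62 ± 0.36 (adjusted p = 0.0342 and 0.0376). On Rat 5K 14 and 15 of them were tested and 0 were called by limma (adjusted p at least 0.0994 and 0.0977).

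Of 28 genes of prostaglandin synthesis and signalling other than Hpgds, 4 and 3 were tested on Rat Liver and 11 and 23 on Rat 5K for the female and GH ratio. Akr1c3, a reductase of steroids and prostaglandins, was lower in females on Rat Liver at -2.04 ± 0.70 (adjusted p = 0.000532) and in GH-treated males on Rat 5K at -1.52 ± 0.60 (adjusted p = 0.0422). Ptgis, the prostacyclin synthase, was lower for GH on Rat Liver at -0.75 ± 0.44 (adjusted p = 0.0341). Pparg, a nuclear receptor bound by prostaglandin metabolites, was higher in females on Rat 5K at 1.17 ± 0.58 (SD, n = 4; adjusted p = 0.0110). With the dye-order difference subtracted from the female ratio on Rat 5K, 0 genes of the redox, prostaglandin and macrophage lists were called by limma (adjusted p at least 0.170, 0.747 and 0.822), so the calls of Gpx1, Hagh, Pparg and Cd14 ended. Gpx1 was then at 0.88, Hagh at -0.40 and Cd14 at -0.51, with their direction kept, whereas Pparg turned to -0.22.

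Over the 8 Rat Liver arrays, the genes whose log2 ratios were most like those of Hpgds by Pearson correlation, among 753 measured on all arrays, were Cyp2c11 (r = 0.957), the male-specific steroid hydroxylase, Oplah (0.925), the oxoprolinase, the organic anion transporter Slc22a8 (0.924), Odf2 (0.900) and Cryab (0.898). By rank correlation, none of these was among the 5 most alike, which Cyp2f4 led at 0.976. On Rat 5K the most alike of 3346 genes were Prpsap2 (0.990), Xpo1, Ireb2, Alg10 and Pdcd2, and no gene was named on both kinds.

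For Gsta3 the most alike genes were Il6r (r = 0.948), the interleukin receptor, the cyclin Ccng1 (0.869), Lss, Mgat2 and the female-biased sulfotransferase Sult2a1 (0.842) on Rat Liver, and Strn3 (0.961), Hgs, Pdk2, Cdk5rap1 and Dhcr7 on Rat 5K. The arrays of a kind draw on the same 4 untreated males and had the same normalization, and with 8 arrays such correlations are a description only.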

How the data were processed

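The authors deposited log2 ratios, which they normalized within arrays by lowess (f = 0.2), per the labels. As a check of the log base, 99.96% (Rat 5K) and 99.88% (Rat Liver) were whole thousandths as powers of 2 within 0.01 thousandths. How spots were scanned and filtered is not stated in the labels. Every column of per-sample values was used. Signs were turned to female or GH-treated male over untreated male. Probes of 1 gene were averaged per array. Each kind had its own fit in limma 3.58.1 (R 4.3.3; lmFit, eBayes, Benjamini-Hochberg over all tested features, two-sided). Features lacking a value on any of a group's 4 arrays were not tested for it. Rat Liver had 2 coefficients, and Rat 5K had 3, with 1 for each title order of the GH arrays.

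The planned fit turned Rat 5K GH replicates 3 and 4 by their titles. It was replaced after the data were seen. Read with the untreated male as numerator, these arrays correlated across genes with the Rat Liver GH arrays at r = 0.181 to 0.458 and with GH replicates 1 and 2 on Rat 5K at -0.186 to -0.0890. Under the title reading both ranges have the opposite sign. The Rat Liver arrays thus went with the reading used, and replicates 1 and 2 on Rat 5K, more weakly, with the title reading. The members and gene lists were chosen with earlier results of these data known. All family members were named, as were list genes past a threshold and the 5 genes most alike. Of the textbook genes used for the direction, those called on either kind were Car3, Cyp2c11, Cyp2c13, Cyp3a2, Cyp3a18, Cyp4a2, Hao2, Hsd3b5, Mup5 and Sult1e1, known as male-biased, and A1bg, Adh1c, Cyp2a1, Cyp2c7, Cyp2c12, Prlr, Sult2a1 and Sult2a2, known as female-biased. Replicate numbers of the female and GH arrays were checked for pairing. Deviations of arrays with the same number correlated at 0.317 to 0.387 on Rat Liver, over 0.1 in 4 of 4, and at -0.117 to 0.276 on Rat 5K. Those of different numbers gave -0.329 to 0.166 and -0.368 to 0.368. On Rat 5K the GH deviations were taken from means of 2 arrays, which nearly mirror each other. Alternatives were arrays left out, centring, scaling, single probes, a looser filter, robust eBayes, other readings of the dye order, a replicate block and both kinds averaged. Upstream sequences are from a set of listed transcript starts on GRCr8 that lacks some genes, and the annotated gene spans are from RefSeq (GRCr8). The fit was tested on simulated data.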

Additional observations from a re-analysis of the deposited data

Results flagged for a closer look

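GH replicates 1 and 2 and GH replicates 3 and 4 on Rat 5K, which the titles give opposite dye orders, had GH ratios of opposite sign on every array for 2 genes of the family. For Gstm5, the difference between the orders divided by 2 was 1.50 on the log2 scale (limma adjusted p = 0.0271). For Hpgds it was -0.61 (adjusted p = 0.152), so that this difference did not pass the threshold. The part of the dyes in it was not tested on the Rat Liver arrays, which all have 1 title order. In 40 groups of 4 arrays the highest and lowest array were compared with the rest, and 0 were flagged by the rule set for that check. This does not mean that the arrays of a group lay close together. On Rat Liver, Hpgds had female replicate 3 at -3.64 and the other female arrays at -2.20 to -1.76. On Rat 5K, Gsta3 had female replicate 2 at 1.90 and the others at 0.79 to 1.04.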

How the results depend on the processing

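Calls of single family members were near the threshold in several comparisons, so the counts moved by 1 or 2 genes. The female count on Rat Liver was 4 and ranged from 2 to 4 when a replicate was left out, and the GH count there was 2 and ranged from 1 to 2. On Rat 5K the female count was 2 and ranged from 1 to 2, became 0 with the dye-order difference of the GH arrays subtracted, and was 3, with Gsta2 added, with arrays scaled to 1 spread, where 362 of all features were called in place of 198. The GH count there was 1 and ranged from 0 to 1. It was 0 with arrays centred on their medians, every probe on its own, a value on at least 3 arrays, robust eBayes, GH replicates 1 and 2 alone, or 1 coefficient for all GH arrays, and 2 (1 higher, 1 lower) with replicates 3 and 4 alone, an alternative added after seeing the data. The count for the difference between the kinds in GH was 0 and ranged from 0 to 1.

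Among the values followed for Hpgds, Gsta1, Gsta3 and Gstm1, signs turned in 6, all on Rat 5K. Hpgds turned to 0.26 for the female ratio with the dye-order difference subtracted, and for GH to -0.48 with replicates 1 and 2 alone, to -0.61 with the title reading and to -1.03 with both kinds averaged. Gsta1 turned to -0.31 and Gsta3 to -0.090 for GH under the title reading. That reading gives replicates 3 and 4 the opposite sign. It also turned the GH ratios of Gsta2 (-0.11), Gsta4 (-0.13), Gstp1 (0.074) and Gstm5 (1.50), none of them called in the reading used here. Under the title reading the GH count was again 1, but the gene was Gstm5 (limma adjusted p = 0.0271) in place of Gsta1. Why the 2 title orders differ for Gstm5 and Hpgds was not tested. Of the other values of named genes under alternatives, 117 kept direction and side of the threshold, 21 kept direction and lost the call and 3 gained it. With the replicate block, which the check of pairing bears out on Rat Liver, female minus GH was 0.46 for Gsta3 there (SE 0.16, adjusted p = 0.554) and -0.20 for Hpgds (adjusted p = 0.788), and the block changed no call of a family member on either kind, with 2 features called on Rat Liver against 0 without it. On Rat 5K, where same-numbered arrays did not all deviate together, it made 0 calls. Single probes were not run for the kinds' difference, since each member has 1 probe. Signal over background is unknown.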
